A study of Mus musculus with 2 samples.

Results

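Cells entering S phase were studied here in cultured neural stem cells of the adult mouse subventricular zone (SVZ), the germinal layer along the lateral ventricles. They are the cells in which transcripts of replication licensing and early S phase were highest, and there were 798 of them among 7430 kept cells. Each kept cell was scored for the share of its unique molecular identifiers (UMIs, distinct captured transcripts) from 3 sets of genes. The early set held Cdc6, Cdt1, Ung, Hells, Mcm4, Msh6 and Dtl, the histone set Hist1h2ap, Hist1h1b, Hist1h2ae, Hist1h1a and Hist1h1d, and the mitotic set Aspm, Prc1, Cenpf, Cenpe, Ube2c, Nusap1 and Plk1. A cell was a member when its early score lay in the top 12% of kept cells of both libraries pooled and ranked above its histone and mitotic scores. Because the cells were chosen by these measured scores, every comparison of the members with other cells below is a description of the chosen cells.

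The study profiled C57BL/6 mice with the 10x Genomics 3′ version 3 single-cell assay. The young library came from mice aged 2 months and the aged library from mice aged 15 to 18 months, with SVZ tissue of 5 mice pooled for each. Dissociated cells were held in a proliferation medium before loading, so all values describe cultured cells. Each age has 1 library, so no difference between ages has a replicate check, no test was made, and all intervals are at 95% and cover counting error only.

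Before S phase, the origin recognition complex, Cdc6 and Cdt1 load the Mcm2-7 helicase onto DNA, a step called licensing. Cyclin E and Cdk2 activity and the release of E2F transcription factors from Rb proteins carry the cell into S phase, where licensed origins fire and newly made DNA is packed with histones. Adult neural stem cells move between quiescence and this cycle, and mitotic genes such as cyclin B follow later, in G2.

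Of the members, 423 were in the young library (11.2% of 3766 kept cells, 10.2 to 12.3%) and 375 in the aged (10.2% of 3664, 9.27 to 11.3%). These intervals overlap. Below, pairs of values are given in the order young, aged. Median depth of the members was 23574 and 24452 UMIs per cell, near that of the other kept cells at 24310 and 25719. Mitochondrial transcripts made up a median of 8.77% and 8.67% of member UMIs and 9.37% and 9.32% in the others. The libraries shared 2 cell barcodes among kept cells and none among members. When cells were ranked by depth and cut into 5 equal bins in each library, members were most frequent in the middle bin (15.1% and 13.8%) and least frequent in the deepest (6.37% and 4.23%). G2 and mitotic cells made up 27.7% and 32.5% of that deepest bin.

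For comparison, 3 reference classes were formed in the same way: histone-high S phase cells (404 and 398), G2 and mitotic cells (406 and 464), and low-cycling cells, in which all 3 scores ranked in the lower 40% (565 and 621). Among the 3 cycling classes together, cells entering S phase made up 34.3% (31.7 to 37.0%) in the young and 30.3% (27.8 to 33.0%) in the aged library. G2 and mitotic cells made up 32.9% (30.3 to 35.6%) and 37.5% (34.8 to 40.3%), and histone-high cells 32.8% and 32.2%. The intervals of the libraries overlap for each of the 3 classes. With each cell thinned to 5000 UMIs before scoring the order of the libraries turned, and cells entering S phase were 8.76% of young and 9.06% of aged kept cells.

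The median member had 22 UMIs from the 7 early genes (range 5 to 58), against 4 in the other cells. All 7 genes were seen in 423 members and 6 of them in another 264, so that 86.1% of members had 6 or 7, compared with 16.6% of other cells. Summed over the 7 genes, the level was 949 and 963 counts per 1000000 UMIs (CPM) in members, 441 and 509 in histone-high cells, 140 and 135 in G2 and mitotic cells, and 38.3 and 36.97 in low-cycling cells. The histone set was not absent from members: its sum was 646 and 747 CPM, close to the 614 and 600.1 of all other cells and far below the 2708 and 2785 of histone-high cells. The sum over all other cells includes the histone-high cells. By cell, the median histone score was 2.21 and 2.39 per 10000 UMIs in members and 0.575 and 0.656 in other cells. No UMI of the histone set was seen in 6.77% of members and 29.8% of other cells. Mitotic genes summed to 312 and 312 CPM in members and to 5738 and 5837 in G2 and mitotic cells.

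**Figure D1:**
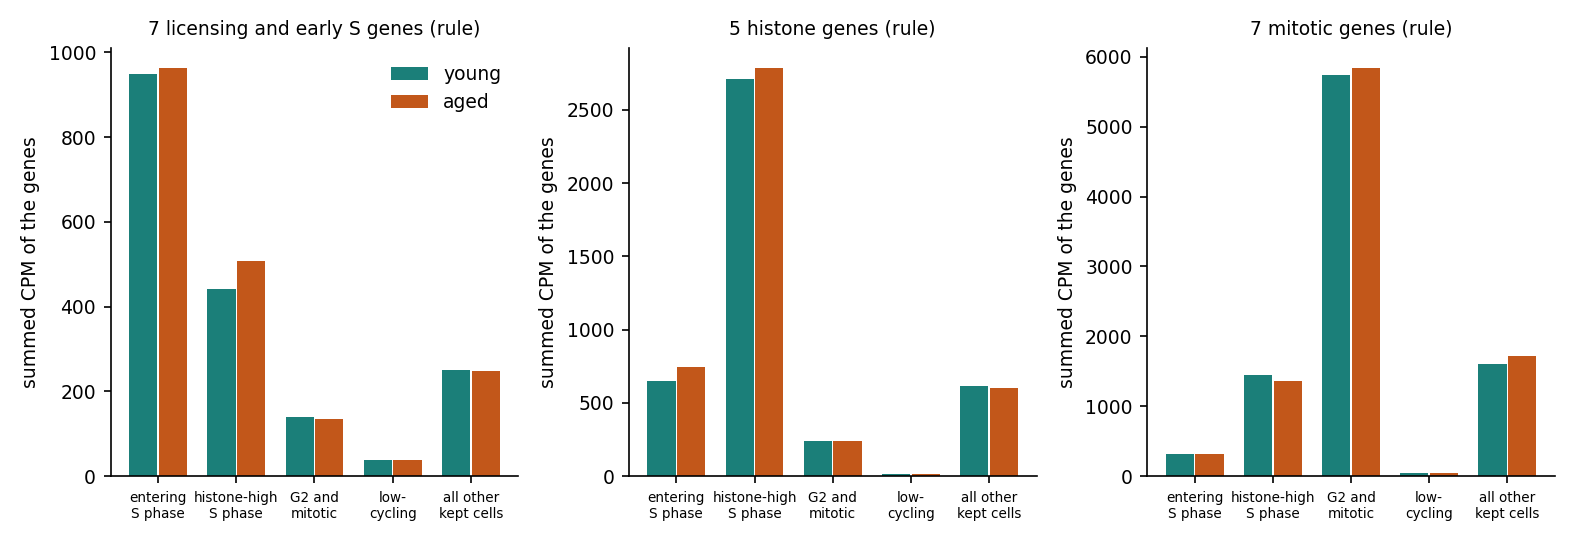
Summed CPM (vertical axes) of the 7 early, 5 histone and 7 mitotic genes of the selection rule, in 5 sets of cells (horizontal axes), with young bars in green and aged bars in orange, each from 1 library. The early genes peak in cells entering S phase at 949 and 963 CPM, the histone genes in histone-high S phase cells and the mitotic genes in G2 and mitotic cells, as the rule requires.

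The edge of the class was not a gap. Of 892 cells in the top 12%, 93 were dropped because the histone score ranked higher and 1 because the mitotic score did. The 50 cells just inside the top 12%, dropped cells included, had early scores from 7.58 to 7.73 per 10000 UMIs. The 50 cells just outside had scores from 7.42 to 7.58. A histone rank above 80 was held by 187 members, and a mitotic rank above 80 by 2.

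Cdc6, which loads the helicase, stood at 61.3 and 62.3 CPM in members, 20.6 and 22.3 in histone-high cells, 1.63 and 1.63 in G2 and mitotic cells, and 0.658 and 0.308 in low-cycling cells. The uracil glycosylase gene Ung, whose product removes uracil from DNA, stood at 141 and 144 CPM in members and at 39.5 and 49.8, 3.18 and 2.95, and 3.66 and 5.11 in the same 3 classes. Both were highest in the members, as chosen, and both were lower in mitotic cells than in histone-high cells. Mcm4, a helicase subunit, had a flatter profile, with 192 and 200 CPM in members and 128 and 134 in histone-high cells. Cdc6 lies at chr11:98907801-98923940 and Ung at chr5:114130386-114139323, both protein-coding genes on the plus strand (GENCODE vM21, GRCm38).

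To read these genes from counts that did not choose the cells, each UMI was assigned by a fair draw to 1 of 2 sets, cells were chosen in the first set (783 cells) and values were read in the second. Cdc6 was then 4.59-fold (3.94 to 5.34) and 4.71-fold (4.01 to 5.51) higher in the chosen cells than in the others, and Ung 3.73-fold and 4.22-fold. Hells, a chromatin remodeller, was 3.57-fold and 3.41-fold higher, Cdt1 2.93-fold and 3.42-fold, Msh6, a mismatch repair gene, 2.68-fold and 2.58-fold, Dtl, part of the ligase that destroys Cdt1, 2.62-fold and 2.66-fold, and Mcm4 2.52-fold and 2.69-fold. In the full counts Cdc6 was 6.02-fold and 6.18-fold higher, so the held-out ratios were smaller for it. Of cells chosen in the first set, 50.4% were chosen again in the second, and 98.5% ranked above the median early score there. Each set holds only part of a cell's UMIs, so these shares describe placement below the full depth. Of the 783 cells, 584 were also members in the full counts, which include the first set.

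Genes were compared by summing UMIs over the cells of a class in each library. A gene was called higher or lower when its level, as CPM plus 1, differed at least 1.5-fold the same way in both libraries, among 8194 genes with at least 10 CPM over all kept cells and outside the rule. Against all other kept cells, 154 genes were called higher in members (1.88% of those compared) and 183 lower (2.23%). Of the 154, 88 had their highest level of the 4 classes in members in both libraries and 51 in histone-high cells, and 151 were at least 1.5-fold above low-cycling cells. Of the 183, 117 were highest in G2 and mitotic cells and 61 in low-cycling cells.

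Genes were ranked by the smaller of the 2 libraries' log2 ratios, among those with at least 20 CPM over all kept cells. Ribosomal protein genes, pseudogenes and Gm or Rik gene models were left out, and genes under the floor can have larger ratios. The gene furthest above the other cells in that ranking was Ccne2 (chr4:11191351-11204779, plus strand), which encodes cyclin E2, a partner of Cdk2. It stood at 61.4 and 59.9 CPM in members and at 19.4 and 17.2 CPM in other cells, a ratio of 3.16 (2.88 to 3.47) and 3.49 (3.16 to 3.84). Its level was almost as high in histone-high cells, at 57.4 and 58.4 CPM, and low in mitotic cells, at 3.49 and 3.27 CPM. Exo1 (chr1:175880581-175913489, plus strand), an exonuclease of mismatch repair, followed at 66.9 and 62.2 against 22.1 and 20.8 CPM, 3.03-fold and 2.99-fold. Among the 20 highest genes of that ranking were also Wdr76, Zfp367, Mcm3, E2f1, Uhrf1, Chaf1a, Chaf1b, Atad5, Fam111a, Brca1, Chek1, Rmi2, Timeless, Clspn, Mcm5, Mcm10, Fignl1 and Mcm6. Their ratios lay between 2.32 (Mcm6, young) and 2.99 (Wdr76, aged).

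Free RNA can leave UMIs in cells that do not express a gene, so detection was read in cells thinned to 5000 UMIs beside the low-cycling cells. Cdc6 was seen in 27.9% and 28.8% of thinned members and in 0.177% and 0 of the low-cycling cells (0 of 621 cells, whose interval reaches 0.592%). Before thinning the member shares were 74.5% and 74.7%. Ccne2 was seen in 22.9% and 23.2% of thinned members and in 0.708% and 0.644% of low-cycling cells, and Ung in 46.6% and 50.4% against 2.48% and 2.25%. Cdc6 and Ung belong to the score that chose both sets of cells, so their gap was set by the rule and is given as a description. Ccne2 is outside the rule and was seen more often in members in both libraries. Low-cycling cells had median depths of 24126 and 25135 UMIs before thinning.

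Promoter sequences of the genes that differed together were searched for 2 kinds of motif. The E2F-type set was TTTGGCGC, TTTCGCGC, TTTCCCGC and TTTGCCGC with their reverse complements GCGCCAAA, GCGCGAAA, GCGGGAAA and GCGGCAAA, which can overlap each other in 1 stretch. The second motif was TTTGAA or its reverse complement TTCAAA, the core of the cell cycle homology region found at many G2 and mitotic promoters. Windows ran from 250 bases before to 50 bases after the gene start (RefSeq, GRCm38.p6). The 4 stretches below are upstream bases, 5′ to 3′ on the gene's strand, with matches in capitals. Dtl is shown as a gene of the rule, Mcm5 and Mcm6 as helicase genes called higher, and Kif11, a spindle motor gene, as a gene called lower.
Dtl: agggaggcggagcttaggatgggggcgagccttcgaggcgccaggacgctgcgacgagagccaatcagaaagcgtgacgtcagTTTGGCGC
Mcm5: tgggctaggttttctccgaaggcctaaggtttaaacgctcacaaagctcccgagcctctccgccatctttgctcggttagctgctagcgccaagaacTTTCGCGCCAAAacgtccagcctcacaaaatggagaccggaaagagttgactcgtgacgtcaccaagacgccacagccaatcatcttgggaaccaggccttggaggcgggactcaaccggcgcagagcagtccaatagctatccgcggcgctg
Mcm6: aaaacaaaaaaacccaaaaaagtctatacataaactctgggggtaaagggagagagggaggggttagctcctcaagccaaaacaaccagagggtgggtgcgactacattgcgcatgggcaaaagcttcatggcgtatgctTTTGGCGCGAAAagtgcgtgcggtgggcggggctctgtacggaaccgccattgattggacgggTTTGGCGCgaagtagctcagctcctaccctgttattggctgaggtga
Kif11: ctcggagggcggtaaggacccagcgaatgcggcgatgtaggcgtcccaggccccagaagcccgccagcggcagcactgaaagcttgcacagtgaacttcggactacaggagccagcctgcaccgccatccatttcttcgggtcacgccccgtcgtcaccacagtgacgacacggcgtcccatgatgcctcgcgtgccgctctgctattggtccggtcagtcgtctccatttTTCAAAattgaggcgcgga
The Dtl stretch (chr1:191575545-191575635, minus strand) ends at the start of the gene and its match begins 8 bases before it. Mcm5 (chr8:75109259-75109508, plus strand) has 2 overlapping matches that begin 153 and 149 bases upstream, on opposite strands. Mcm6 (chr1:128359706-128359955, minus strand) has an overlapping pair at 110 and 106 bases and a further match at 47 bases. Kif11 (chr19:37376132-37376381, plus strand) has its TTCAAA 19 bases upstream.

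An E2F-type match was held by 37 of the 126 genes called higher that had a window (29.4%), 7 of 148 called lower (4.73%) and 292 of 6099 called neither (4.79%). Of all 27025 genes with a window, 2.605% held one. TTTGAA in either orientation was held by 18 of 126 genes called higher (14.3%), 66 of 148 called lower (44.6%), 793 of 6099 called neither (13.0%) and 20.2% of all genes with a window. Over the genes called, the 2 motifs were thus frequent in opposite sets: the E2F-type match among genes high in members, the other among genes low in them. Of the rule's early genes, 5 of 6 with a window held an E2F-type match, of the licensing genes 5 of 11, and of the G2 and mitotic list 1 of 35, in which 24 held TTTGAA. Not every list high in members had this split. Of 8 origin firing genes, 1 held an E2F-type match and 3 held TTTGAA, and of 14 G1/S regulators 5 and 6 did. Of 18 nucleotide genes 1 and 2 did, and of 20 polymerase genes 7 and 2. A match describes letters in a window and not a bound site.

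Among licensing genes, 7 of 12 compared were called higher and none lower, with a median log2 ratio of 0.84 and 0.84 (all genes compared, 0.03 and 0.04). The helicase subunits made up most of them. Mcm3 (chr1:20802968-20820312, minus strand) stood at 305 and 288 CPM in members, 231 and 223 in histone-high cells, 66.3 and 67.4 in mitotic cells and 13.6 and 11.5 in low-cycling cells. Mcm5 stood at 180 and 170 against 72.6 and 70.7 CPM in all other cells, Mcm6 at 217 and 219 against 93.5 and 84.8, Mcm2 at 145 and 154 against 70.7 and 69.9, and Mcm7 at 224 and 233 against 117 and 110. All 5 helicase subunits outside the rule were thus called higher. Orc6, of the origin recognition complex, was called higher at 164 and 159 against 92.5 and 88.9 CPM, whereas Orc2 (log2 ratios of 0.57 and 0.56), Orc3, Orc4, Orc5 and the complex partner Lrwd1 (-0.15 and -0.09) were not called. Gmnn, which encodes the Cdt1 inhibitor geminin, was higher than in other cells at 123 and 116 against 67.0 and 63.7 CPM, but lay below its level in histone-high cells, 157 and 154 CPM.

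In the list of origin firing genes, 9 of 12 were called higher and none lower (medians 0.78 and 0.81). The largest log2 ratios of the list were those of Wdhd1, which couples the helicase to polymerase alpha, with 1.35 and 1.42, and of the initiation factor Mcm10, with 1.23 and 1.47. Cdc45, part of the active helicase, stood at 67.3 and 58.3 CPM in members, 29.4 and 25.4 in other cells and 76.6 and 68.2 in histone-high cells. The kinase gene Cdc7 was called higher, at 37.0 and 37.6 against 21.4 and 19.8 CPM. Its activating subunit Dbf4 went the other way without being called, at 63.7 and 59.0 against 85.7 and 88.8 CPM, and was highest in mitotic cells at 214 and 218 CPM.

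Replicative polymerases, clamp and lagging strand genes were called higher in 17 of 24 cases, with medians of 0.71 and 0.79. Atad5, which unloads the clamp, led at 75.9 and 73.8 against 27.8 and 28.5 CPM. Pcna, the sliding clamp, was called only narrowly, 1.56-fold and 1.53-fold, at 279 and 250 CPM in members and 178 and 163 in other cells. Its peak was in histone-high cells, at 362 and 347 CPM, and it kept 44.6 and 40.7 CPM in low-cycling cells.

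Fork protection and checkpoint genes had the highest medians of the lists, 0.96 and 0.95, with 8 of 12 called higher. Timeless and Clspn, which hold the fork and relay the checkpoint signal, stood at 93.5 and 84.0 against 35.5 and 34.4 CPM and at 199.99 and 193 against 78.5 and 80.4 CPM. The kinase gene Chek1 stood at 57.1 and 56.9 against 23.0 and 22.1 CPM. Atr, the kinase upstream of it, was at 26.9 and 27.8 against 20.3 and 21.4 CPM and was not called.

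Deoxynucleotide supply followed another pattern, with 3 of 19 genes called higher and medians of 0.41 and 0.35. Among them were Ppat of purine synthesis, at 84.5 and 88.8 against 41.7 and 40.5 CPM, and Umps of pyrimidine synthesis, at 74.8 and 70.1 against 37.7 and 36.3 CPM. Rrm1, the large subunit of ribonucleotide reductase, stood at 165 and 163 CPM in members and 151 and 152 in other cells. The small subunit gene Rrm2 stood at 261 and 272 CPM in members, 188 and 199 in all other cells and 441 and 461 in histone-high cells. Thymidine kinase, Tk1, stood at 100.05 and 92.3, 77.4 and 72.6, and 172 and 177 CPM in the same order. Ribonucleotide reductase and thymidine kinase transcripts were thus higher in histone-high cells than in members.

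Genes of chromatin assembly and maintenance methylation were called higher in 8 of 15 cases (medians 0.78 and 0.86). Chaf1b and Chaf1a, of the complex that deposits histones behind the fork, stood at 124 and 107 against 47.5 and 37.7 CPM and at 101 and 94.8 against 37.3 and 35.9 CPM. Uhrf1, which brings the methyltransferase Dnmt1 to new DNA, stood at 191 and 181 against 72.0 and 66.0 CPM. Casp8ap2, needed for histone gene transcription, was also called, at 133 and 142 against 57.3 and 55.8 CPM, while the histone transcripts themselves were not. Of 11 other replication-dependent histone genes compared, none was called either way (medians -0.26 and 0.02). These counts come from a poly-A based assay, and most such histone transcripts end without a poly-A tail, so their levels are measured poorly.

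G1/S regulators were called higher in 10 of 19 cases and lower in none (medians 0.70 and 0.63). Besides Ccne2 these were Ccne1, Cdk2, Skp2, Rbl1 and the E2F genes E2f1, E2f2, E2f3, E2f7 and E2f8. E2f1, an activator of S phase genes, stood at 51.1 and 48.4 against 18.3 and 17.6 CPM, and E2f2 at 38.4 and 38.7 against 13.9 and 13.2 CPM. The repressors E2f7 and E2f8 stood at 24.6 and 20.02 against 11.4 and 12.01 CPM and at 38.8 and 30.9 against 19.05 and 17.8 CPM. Activator and repressor E2F transcripts were thus both higher in members. The D cyclins were not called: Ccnd1 stood at 1811 and 1860 CPM in members and 1864 and 1788 in other cells, and Ccnd2 at 1455 and 1035 against 1522 and 1171.

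Cell cycle inhibitors and quiescence genes went the other way, with 7 of 11 called lower and none higher (medians -0.68 and -0.74). Cdkn1a, which encodes the CDK inhibitor p21, stood at 291 and 259 CPM in members against 444 and 433 in other cells. It was higher in each other class, at 563 and 543 CPM in histone-high cells, 491 and 461 in mitotic cells and 541 and 546 in low-cycling cells. Cdkn2b, an inhibitor of Cdk4 and Cdk6, stood at 11.0 and 7.96 CPM in members and 72.4 and 61.9 in low-cycling cells. Cdkn2d had its high level elsewhere, at 121 and 119 CPM in histone-high cells against 35.0 and 33.9 in members. Cdkn3, a phosphatase gene, Cdkn2c, Tob1 and Mxd4 were the others called, and Btg2, Cdkn1b, Cdkn2a and Btg1 were not.

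Homologous recombination and Fanconi genes were called higher in 10 of 18 cases (medians 0.73 and 0.74). Brca1 stood at 58.1 and 59.1 against 22.9 and 22.9 CPM, with 62.4 and 67.4 in histone-high cells, and its partner Bard1 was called too (log2 1.18 and 0.95). Mismatch and base excision repair genes were called in 4 of 12 cases (medians 0.30 and 0.33), among them Exo1, Msh3 and Pms2. Msh3, which recognises mismatched loops, stood at 34.9 and 36.5 against 17.4 and 15.0 CPM. Neil3, a glycosylase gene, was not called and stood at 16.6 and 16.7 CPM in members against 43.5 and 52.6 in histone-high cells.

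Of 42 G2 and mitotic genes outside the rule, 40 were called lower in members (medians -1.22 and -1.27). The other two, Bub3 and Arl6ip1, named after their values were seen, had log2 ratios of -0.32 and -0.43 and of -0.52 and -0.52. Ccnb1, cyclin B1, stood at 39.2 and 32.4 CPM in members, 139 and 119 in histone-high cells and 624 and 612 in mitotic cells, and Gas2l3, a cytoskeletal linker active in cell division, at 6.33 and 7.21, 35.5 and 31.1, and 184 and 187 CPM. Kif11, whose promoter is shown above, stood at 35.7 and 38.7 CPM in members and 343 and 351 in mitotic cells. The proliferation marker Mki67 stood at 225 and 219, 771 and 771, and 1230.1 and 1231 CPM in members, histone-high and mitotic cells, and at 13.4 and 14.8 CPM in low-cycling cells. In cells thinned to 5000 UMIs, Mki67 was seen in 53.7% and 52.8% of members, 91.6% and 94.2% of histone-high cells, 98.5% and 98.3% of mitotic cells and 7.79% and 6.602% of low-cycling cells (84.2% and 85.9%, 99.8% and 99.2%, 100% and 99.8%, and 23.5% and 28.0% before thinning). Members thus held less Mki67 than cells later in the cycle and far more than low-cycling cells.

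**Figure D2:**
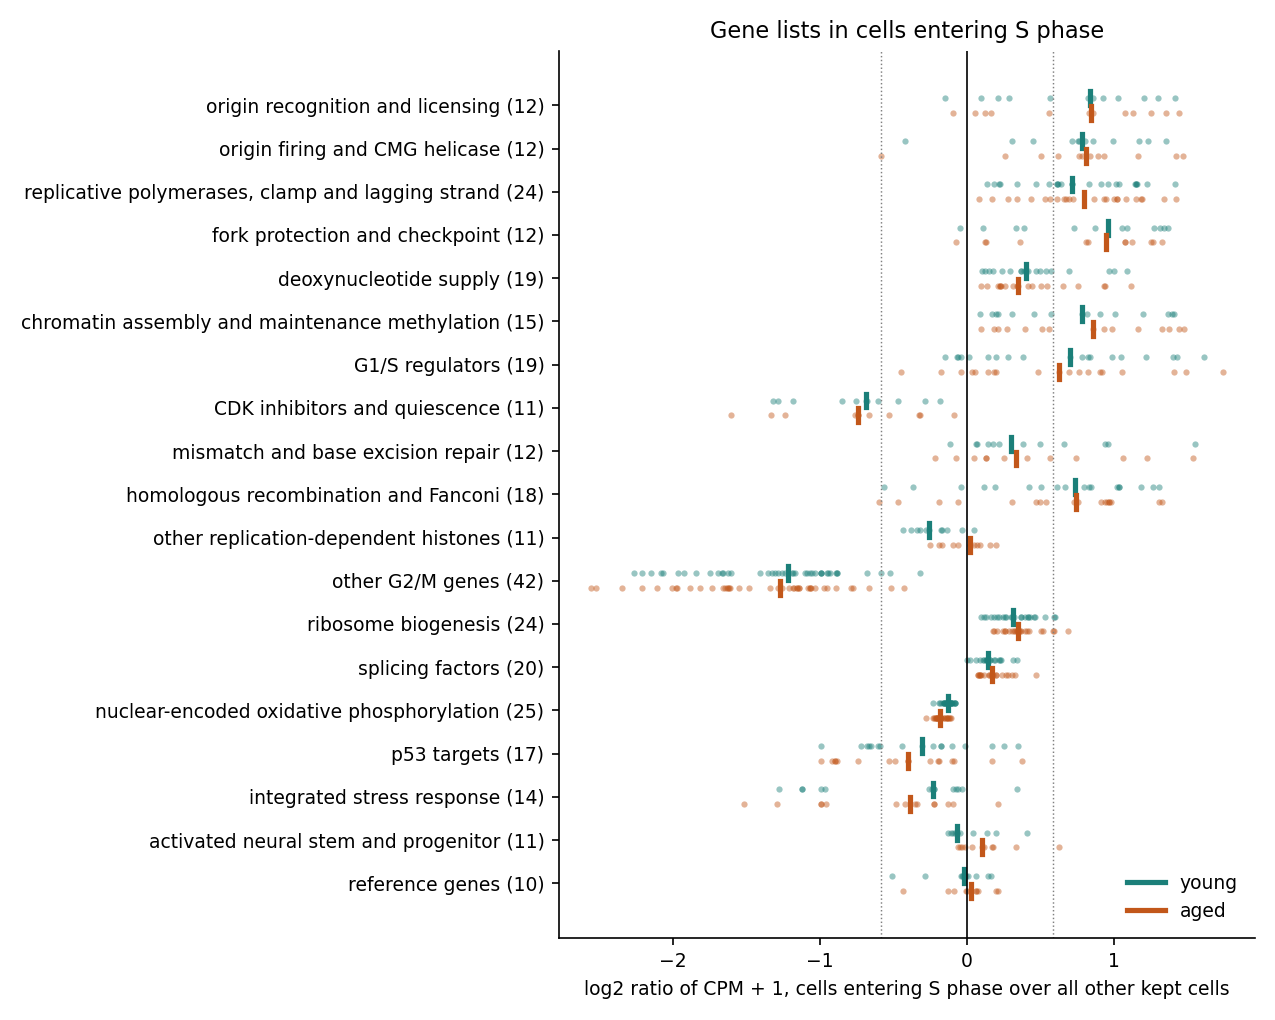
Log2 ratio of CPM plus 1 between cells entering S phase and all other kept cells (horizontal axis) for the compared members of 19 gene lists (vertical axis, number compared in brackets), with points for genes, thick bars for list medians, young in green and aged in orange, and dotted lines at 1.5-fold. The replication lists lie right of 0, with medians up to 0.96, the CDK inhibitors and the G2 and mitotic genes lie left of it, and the reference genes centre on it.

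Against histone-high S phase cells alone, 32 genes were called higher in members (0.391% of 8194) and 165 lower (2.01%). None of the licensing, origin firing, fork, nucleotide, chromatin or G1/S list genes was among the 32. The 6 rule genes above 1.5-fold there were all but Mcm4, by choice of the cells. The largest ratios outside the rule, among genes with at least 20 CPM over all kept cells, were modest. Vav3, an exchange factor for small GTPases, stood at 185 and 170 against 109.5 and 99.6 CPM, and Akap12, a kinase scaffold, at 176 and 153 against 107 and 84.9. Kdm5b, a histone H3 demethylase, stood at 20.8 and 20.02 against 12.1 and 8.67 CPM but lay lower than in all other kept cells, at 43.1 and 41.1. Clip4, Prr5l, Fahd1, Cd3eap and Ptrh2 completed the 8 highest, with ratios from 1.63 to 1.90. Vav3, Akap12, Kdm5b, Clip4, Prr5l and Fahd1 were higher in low-cycling cells than in members in both libraries. Vav3 stood at 202 and 183 CPM there. Clip4 also lay below all other kept cells, at 38.1 and 36.8 against 40.8 and 43.7 CPM. Cd3eap and Ptrh2 were lower in low-cycling cells than in members, and were also called higher against all other kept cells. Called lower against histone-high cells were 9 of the 11 other histone genes (medians -1.90 and -1.77). So were 34 of the 42 G2 and mitotic genes (medians -1.54 and -1.53). Licensing genes were nearly level between the classes, with medians of 0.09 and 0.11, and polymerase genes somewhat lower in members, with -0.25 and -0.26.

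**Figure D3:**
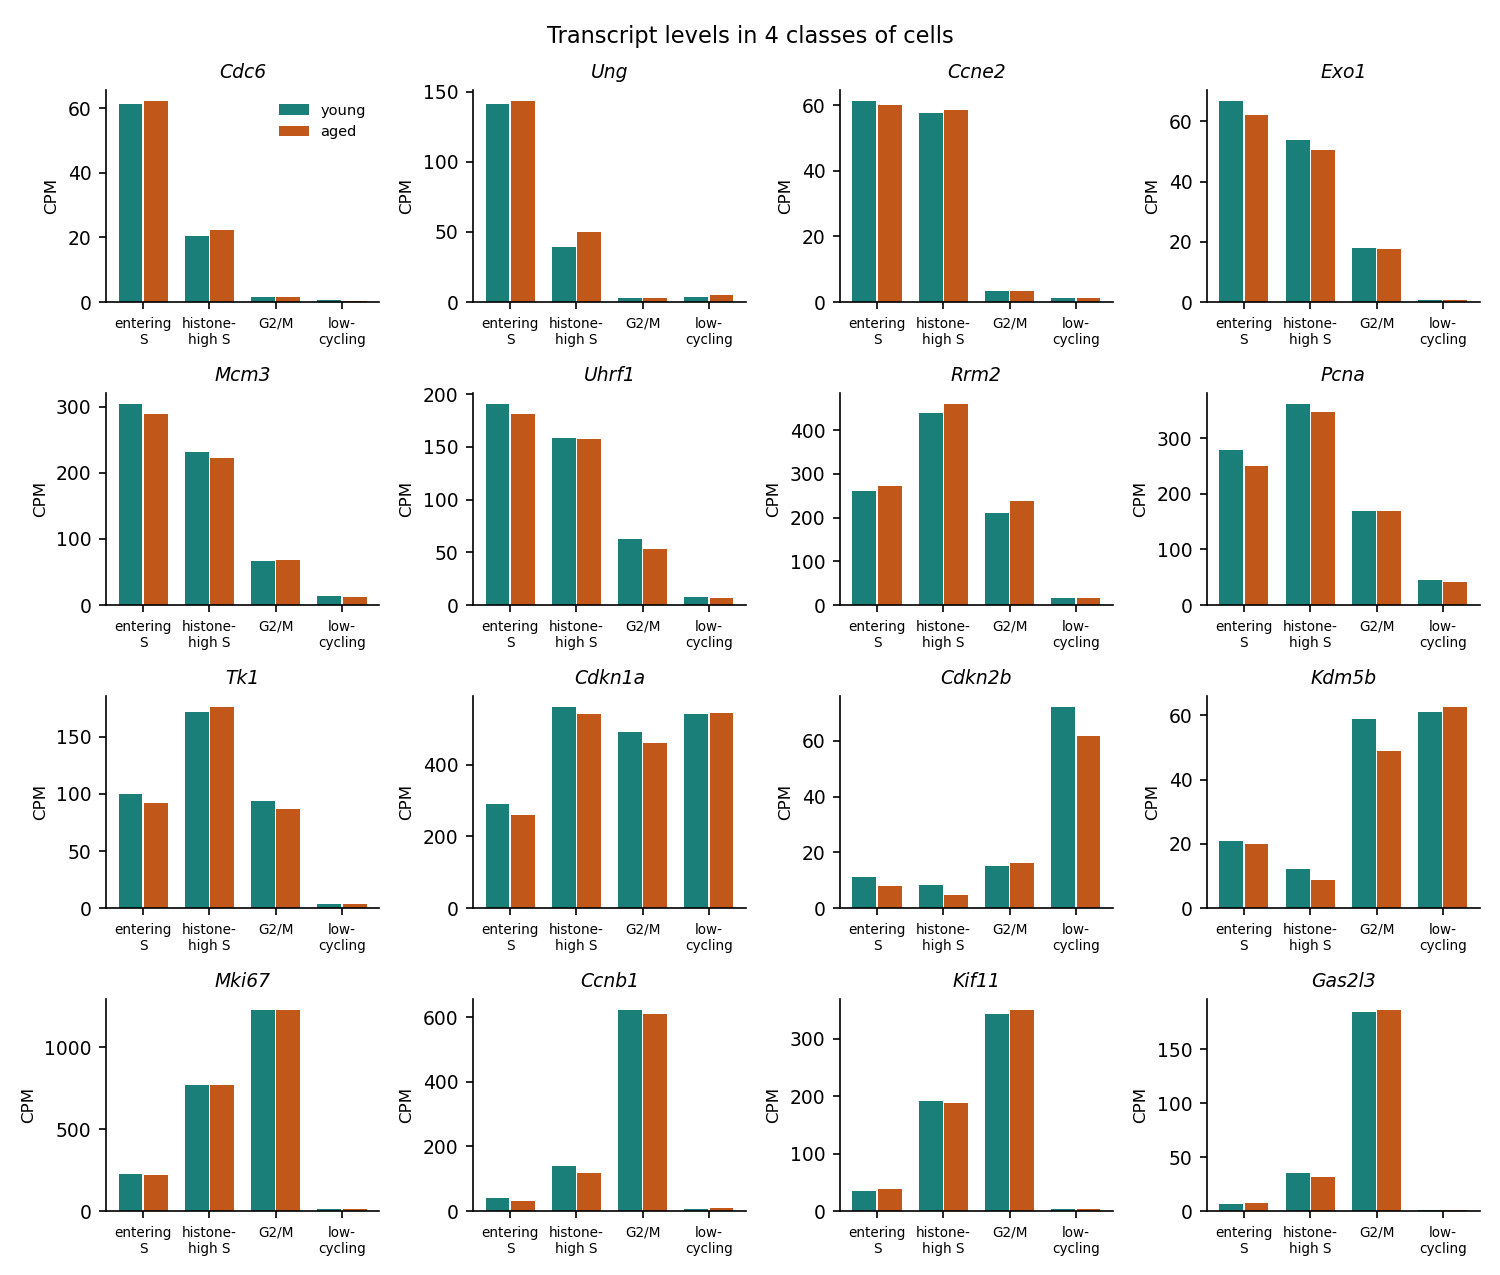
Level in CPM (vertical axes, each from 0) of 16 genes in the 4 classes of cells (horizontal axes), with young bars in green and aged bars in orange, each from 1 library. Cdc6 and Ung are far lower in the other classes, Ccne2 stays high in histone-high cells, Rrm2 and Tk1 peak there, and Gas2l3 and Ccnb1 peak in G2 and mitotic cells.

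Members differed among themselves in histone level. They were cut into 3 equal groups by histone score, with median scores of 0.586 and 0.699 per 10000 UMIs in the lowest, 2.32 and 2.19 in the middle and 15.8 and 16.5 in the highest group. The young library put 143, 148 and 132 cells in these groups and the aged library 123, 118 and 134. The median early score was similar in the groups, at 8.82 and 9.09 in the lowest and 9.15 and 9.61 in the highest. Depth differed a little, with medians of 22374 and 24277 UMIs in the lowest and 25722 and 25960.5 in the highest group, and its part in the differences below was not tested.

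Between the highest and lowest histone group, 157 genes were called higher (1.92%) and 17 lower (0.207%). The early score chose all members, so levels of its 7 genes across the groups are a description, with Cdc6 at 60.6 and 60.3 CPM in the lowest and 58.6 and 66.8 in the highest group, and Ung at 147 and 152 and at 132 and 137. Chek1, which is outside the rule, differed little, at 59.1 and 60.3 and at 56.9 and 58.1 CPM. Ccne2 was higher in the highest group, at 82.2 and 83.0 against 44.3 and 37.0 CPM, as were Brca1 (86.8 and 83.0 against 31.7 and 39.1), Pcna (346 and 319 against 224 and 206) and Rrm2 (353 and 398 against 194 and 179). Members with more histone RNA therefore held more of these 4 transcripts at a similar early score. Fbxo5, an inhibitor of the anaphase-promoting complex, stood at 102 and 86.9 against 28.9 and 19.9 CPM, and Top2a, which untangles replicated DNA, at 437 and 448 against 132 and 120.

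By list, 10 of 11 other histone genes and 27 of 42 G2 and mitotic genes were called higher in the highest group, and 7 of 24 polymerase, 6 of 18 recombination, 5 of 19 G1/S, 3 of 12 origin firing and 3 of 19 nucleotide genes. Of 12 licensing genes only Gmnn was called, at 153 and 159.7 against 98.5 and 80.2 CPM, with a list median of 0.23 and 0.36. The highest group also had the higher mitotic score, with medians of 4.36 and 3.49 per 10000 against 1.47 and 1.17 in the lowest. A few late genes ran the other way. Cenpa, the centromeric histone, was at 112 and 115 CPM in the lowest and 52.9 and 43.3 in the highest group, and Cdkn3 was at 16.9 and 18.2 and at 5.75 and 5.10. Cdkn1a was not called, at 373 and 323 CPM in the highest against 241 and 220 in the lowest group.

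**Figure D4:**
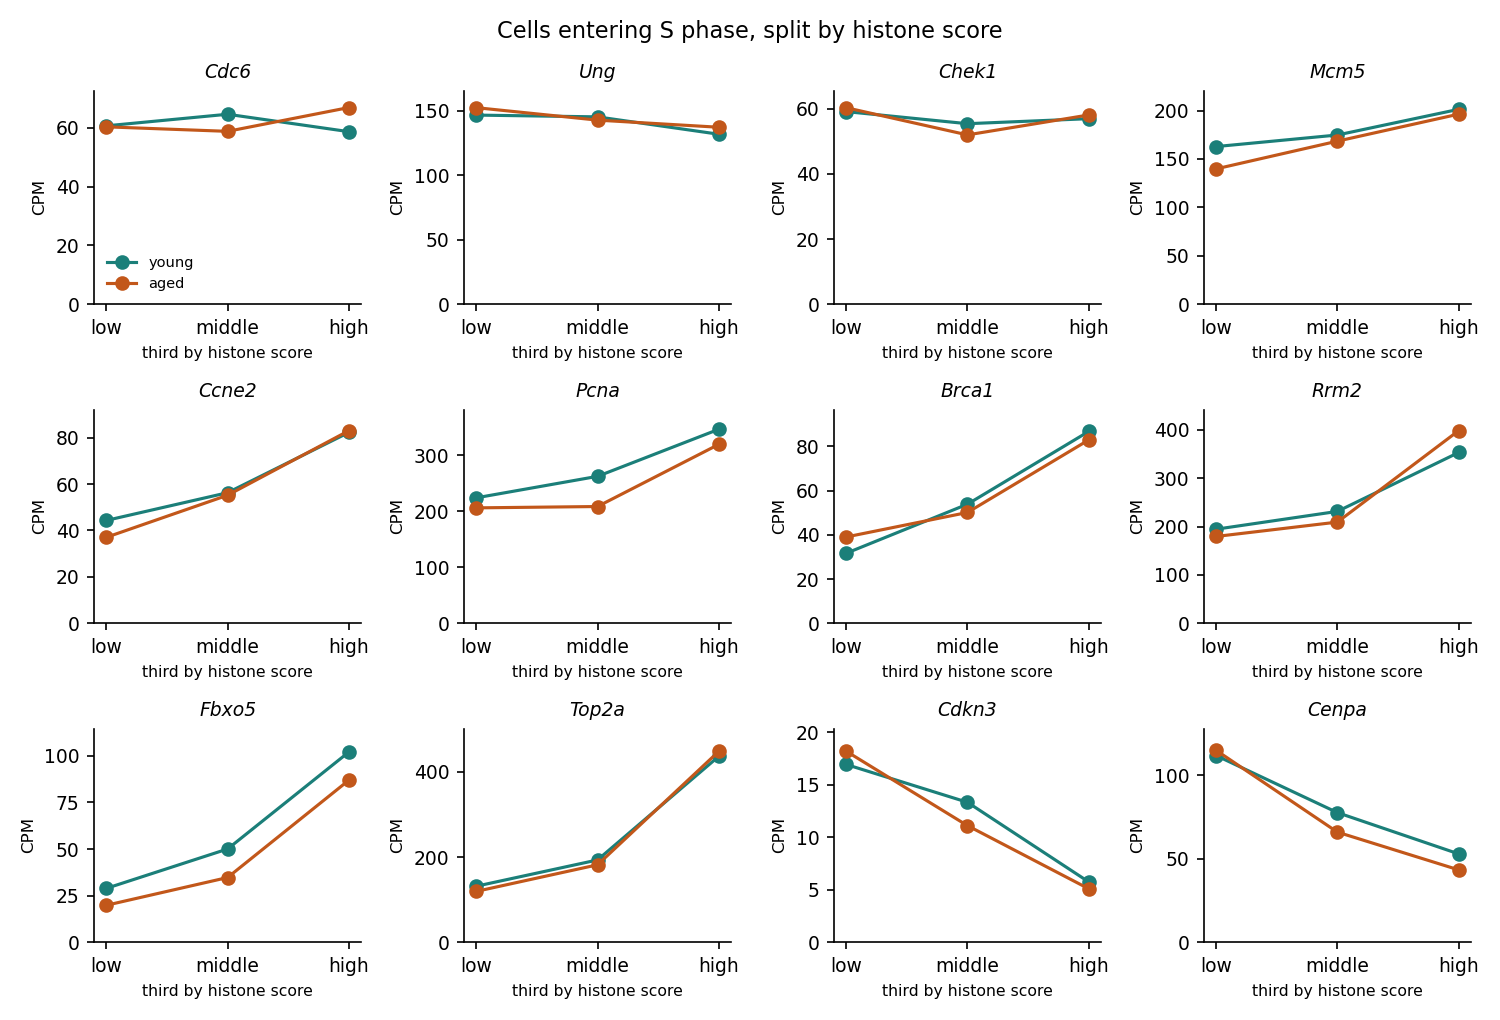
Level in CPM (vertical axes, from 0) of 12 genes in 3 equal groups of cells entering S phase ordered by histone score (horizontal axes), with young in green and aged in orange, each point 1 library. Cdc6 and Ung, whose score chose the cells, and Chek1 are level, Ccne2, Brca1, Rrm2, Fbxo5 and Top2a are higher with more histone RNA, and Cdkn3 and Cenpa are lower.

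Beyond the cycle, members resembled the other cells in the genes of the labelled cell type. Sox2, a stem cell transcription factor, stood at 238 and 279 CPM in members and 255 and 272 in others, Egfr, a receptor of activated stem cells, at 143 and 169 against 150 and 176, and Olig2 at 528 and 460 against 513 and 423. None of 11 activated stem and progenitor genes was called. Of 11 astrocyte or quiescent stem cell genes, 2 were called lower: Apoe, a lipid carrier, at 146 and 107 against 319 and 303 CPM, and the gap junction gene Gja1 at 9.70 and 6.13 against 22.4 and 22.2. The summed level of that list was 1659.6 and 1881 CPM in members and 2110.2 and 2502 in other cells. Over the 11 genes compared, the sum was 1638 and 1864 CPM in members and 1502 and 1726 in histone-high cells. It was 1597 and 2050 in mitotic cells and 3223 and 3707 in low-cycling cells. Low-cycling cells held most Apoe, at 801 and 805 CPM, and the part of these cells in the difference was not tested. Gfap, a defining astrocyte marker, was at 0.396 and 0.753 CPM in members. The 15 neuroblast or neuron markers summed to 602 and 563 CPM in members and 524 and 492 in other cells, with 3 at 0 in members, and none of the 3 compared was called (medians 0.22 and 0.19). Most of that sum was Map2, a microtubule protein gene, at 479 and 446 CPM, while Dcx, a defining neuroblast marker, was at 1.68 and 2.26. The 14 oligodendrocyte lineage markers summed to 1611 and 1352 CPM in members and 1307 and 956 in other cells, with 2 at 0, and none of the 5 compared was called (medians 0.30 and 0.36). Olig1, a transcription factor gene, made up most of it at 1392 and 1107 CPM, while Pdgfra, the defining precursor marker, was at 3.66 and 2.26.

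Markers of other cell types were low or nearly absent. All 12 endothelial or mural markers were under 1 CPM in members, and 10 of 12 microglial markers were, with 8 at 0. The 1 microglial marker compared stood at 19.3 and 13.7 CPM. Of 8 fibroblast markers 7 were under 1 CPM, and of 9 ependymal markers only 4, with a list sum of 17.7 and 9.36 CPM. The 10 reference genes had medians of -0.02 and 0.03, with none called.

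p53 target genes were called lower in 6 of 17 cases (medians -0.30 and -0.40): Sesn2, Trp53inp1, Gadd45a, Bbc3, Ccng1 and Cdkn1a. Sesn2, a stress-induced inhibitor of growth signalling, stood at 17.2 and 17.004 CPM against 35.2 and 34.9. Genes of the integrated stress response were called lower in 5 of 14 cases (medians -0.23 and -0.39): Slc7a11, Nupr1, Ddit4, Ddit3 and again Sesn2. Slc7a11, the cystine transporter, stood at 5.05 and 7.21 against 13.6 and 19.1 CPM. Ribosome biogenesis genes were higher in sign in 24 of 24 cases, with 2 of them called, Nolc1 (195 and 206 against 129 and 127 CPM) and Utp20. Their sum was 5633 and 5653 CPM in members and 5485 and 5382 in histone-high cells. It was 4728 and 4547 in mitotic cells and 3140 and 3174 in low-cycling cells. Splicing factors were called in none of 20 cases (0.14 and 0.17) and nuclear-encoded oxidative phosphorylation genes in none of 25, although all 25 were lower in sign (-0.13 and -0.18). Those 25 summed to 14713 and 15588 CPM in members and 19477 and 21795 in low-cycling cells. In histone-high cells the sum was 14002 and 14979, and in mitotic cells 14008 and 15231, so members were not lower than the other cycling classes.

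Between ages, 67 genes were at least 1.5-fold higher in aged than in young members (0.818% of 8194) and 70 lower (0.854%). With at most 10% mitochondrial UMIs per cell the counts were 110 and 73. In the other kept cells 66 were higher (0.805%) and 63 lower (0.769%). Of the genes higher, 41 were called in both sets of cells, and of the genes lower 39. The member and other cells come from the same 2 libraries, so this overlap is no replicate. None of the genes in the licensing, origin firing, polymerase, fork, nucleotide, chromatin, G1/S and repair lists was called either way between ages in members, and list medians lay between -0.10 and 0.04.

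Within those lists, Ccne1 was at 73.2 CPM in young and 53.6 in aged members, and was seen in 31.2% (26.8 to 35.9%) and 19.2% (15.3 to 23.6%) of members thinned to 5000 UMIs (74.2% and 64.3% before thinning). Its level was not called, with a log2 difference of -0.44, and the intervals cover the counting of cells in 1 library per age, not the spread between cultures. In low-cycling cells Ccne1 was seen in 6.73% and 4.99% of thinned cells. In histone-high cells, the nearest class, it was seen in 25.7% and 26.1%, with no drop in the aged library. In all other kept cells it was seen in 13.1% and 10.2%. Ccne1 was not the only such gene of its list. Ccnd2 was seen in 97.6% (95.7 to 98.9%) and 93.3% (90.3 to 95.6%) of thinned members. Ccne2 was level between the libraries at 61.4 and 59.9 CPM, Cdc6 at 61.3 and 62.3 and E2f1 at 51.1 and 48.4. Of the rule's histone genes, Hist1h2ap was at 89.9 and 167 CPM, a ratio of 1.85, beside 1.49 in other cells.

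Wdfy1, an endosomal adaptor, had the largest ratio of aged over young members among genes with at least 30 CPM in members. It stood at 7.62 CPM in young and 63.7 in aged members, 8.36-fold higher (6.58 to 10.7), with 5.33-fold in the other cells (4.97 to 5.72). Erdr1 stood at 25.5 and 190.4 CPM, 7.46-fold higher in the aged members and 8.12-fold in other cells, but it has near-identical copies that counting may split, so its value is uncertain. Kcnd2, a potassium channel, stood at 26.0 and 59.3 CPM, and Mef2c, a transcription factor, at 37.1 and 83.2. Hdac5, a histone deacetylase, was 2.52-fold higher, at 47.9 CPM in aged members. Ifi27, Nckap5, Thy1 and Sez6 were also among the 10 highest, at 1.97, 1.92, 1.81 and 1.71-fold. In all 10, the other kept cells differed in the same direction, by 1.65-fold or more.

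Among genes lower in aged members, Rlbp1, a retinaldehyde-binding protein gene, stood at 49.2 CPM in young and 11.6 in aged members, 4.23-fold lower (3.43 to 5.26), with 5.15-fold in other cells. Anxa3, an annexin, stood at 87.8 and 22.4 CPM, a ratio of 3.92 (2.66 in other cells), and Sparc, a matrix protein, at 64.0 and 25.5, a ratio of 2.51 (2.11). Pttg1, the securin gene, stood at 49.8 and 20.1 CPM, Kitl, the Kit ligand gene, at 87.0 and 38.6, Chl1 at 69.4 and 34.1 and Nptx1 at 75.8 and 39.9. Cdkn2a, whose locus encodes p16 and p19Arf, stood at 180 CPM in young and 94.1 in aged members, 1.92-fold lower in the aged, with 1.87-fold in other cells. The transcript count of the locus was thus higher in the young library in both sets of cells. A count per gene does not tell p16 and p19Arf apart.

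Immediate early genes were the list with most genes called between ages, 6 of 13 lower in aged members and none higher (median -0.43, against -0.52 in other cells, where 6 were also lower). Egr1 stood at 269 and 148 CPM and Fos at 48.7 and 20.9, and Ier3, Junb, Fosb and Dusp6 were the others. These genes encode transcription factors and signalling regulators induced early after a stimulus, and they were lower in the aged library in both sets of cells. Ccng1 and Trp53inp1 of the p53 list were called lower in aged members, at 124 and 79.1 CPM and at 45.1 and 28.8, and not called in other cells, a difference between the sets of cells that was not tested. Nupr1, a stress-response gene, was called higher at 4.95 and 7.96 CPM, a low level that lay close to the 1.5-fold line. In the integrated stress response list, 1 of 14 genes was called higher between ages in members and 1 in other cells. The list medians were 0.10 in members and 0.24 in other cells.

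**Figure D5:**
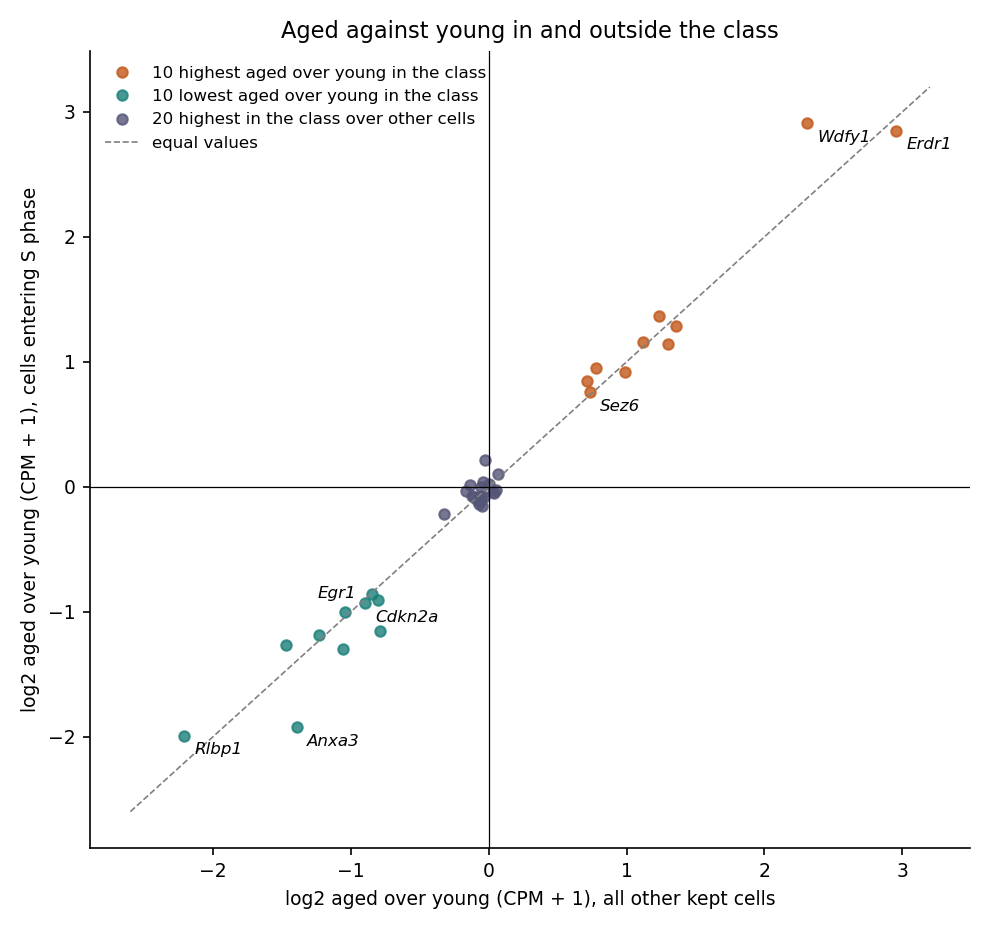
Log2 ratio of aged over young CPM plus 1 in cells entering S phase (vertical axis) against the same ratio in all other kept cells (horizontal axis), for the 10 genes highest and 10 lowest between ages in members and the 20 genes highest in members over other cells, with the dashed line at equal values. Wdfy1, Erdr1 and Rlbp1 lie far from 0 on both axes, and the 20 genes high in members lie near 0. Both axes rest on the same 2 libraries. The ranking between ages took genes with at least 30 CPM in members, the other those with at least 20 CPM over all kept cells.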

How the data were processed

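UMI counts per gene and barcode were deposited for 2 libraries. Per the submitters' processing notes, the tool was Cell Ranger 3.0.2 and the build mm10. The gene annotation behind the counts was not given in the sources used here. The matrices hold called barcodes with no normalization: 5151 and 4731 barcodes with 97774963 and 101666604 UMIs (young, aged). Cells with at least 5000 UMIs and at most 20% of UMIs from the 13 mitochondrial genes were kept. No doublet caller was run. Leaving out the deepest 5% of cells was an alternative.

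UMIs were summed per class and library, given as CPM and compared as the log2 ratio of CPM plus 1. Ratios have exact conditional binomial intervals and shares exact Clopper-Pearson intervals. Of 27998 gene identifiers, 27645 were found in the reference table, 26476 of them with the same symbol apart from case, and 127 symbols occur more than once. In simulated counts of 8213 genes for members against other cells, 100% of 2-fold increases, 96% of 2-fold decreases and 0% of 1.2-fold increases were called. These were Poisson draws from the pooled means, with no variation between cells or libraries and no choice of cells by score. The rates therefore cover counting error only, and the comparison between ages was not simulated. Python 3.11.15, numpy 2.4.6, scipy 1.17.1 and pandas 2.3.3 were used.

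Members and gene lists were chosen with earlier results of these data known. The genes named are the 20 highest and 12 lowest in members over other cells (at least 20 CPM), the 8 highest and lowest against histone-high cells, the 10 highest and lowest between ages (at least 30 CPM in members), the 19 rule genes, up to 4 genes per list with the largest ratios either way, licensing, origin firing and G1/S genes, and 14 fixed markers. Ribosomal protein genes, pseudogenes and Gm or Rik gene models were left out. Genes named beside them to complete a small count, or from the histone groups, were chosen after their values were seen. Some genes within this rule are not reported here.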

Additional observations from a re-analysis of the deposited data

Results flagged for a closer look

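The early S phase genes were also read in the barcodes that the filters left out, 1385 young and 1067 aged, with median depths of 1317 and 1146 UMIs. There the 7 genes summed to 237 CPM (221 to 254) in the young and 222 CPM (204 to 241) in the aged library, far above the 0.925 and 1.22 CPM that a count of 3 would give. In kept cells they summed to 324 and 314 CPM. Of the left-out barcodes, 17.04% and 18.8% had an early score above the edge of the class, at depths where 1 or 2 UMIs decide the score. They belong to no class here.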

How the results depend on the processing

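Members were 11.2% and 10.2% of kept cells. The shares were 7.73% and 7.10% with the top 8% by early score, 14.4% and 13.0% with the top 16%, and 13.2% and 12.3% with low-cycling cells left out (chosen after seeing the data). With cells thinned to 5000 UMIs before scoring they were 8.76% and 9.06%, so the order of the libraries turned. Genes called higher in members numbered 154, and 37 at a floor of 50 CPM, 250 with any UMI, 48 at 2-fold and 1144 against low-cycling cells alone. Genes called lower numbered 183, and 68, 276 and 72 in the first 3 of these settings. Genes higher in aged members numbered 67, and 110 with at most 10% mitochondrial UMIs, 128 at a floor of 5 CPM, 18 at 50 CPM, 382 with any UMI and 11 at 2-fold. Genes lower in aged members numbered 70, and 125, 19, 346 and 15 with the last 4 of these settings. These settings compare other cells, other genes or another fold. Over the 113 replication and G1/S genes compared, the median log2 ratio was 0.69, but 0.55 with at most 10% mitochondrial UMIs and 0.53 at a floor of 50 CPM. The cause was not tested. With the 2 sets of UMIs swapped, the ratio of Cdc6 in the aged library was 5.89 and of Msh6 in the young library 2.36. With TTTGGCGC and TTTCGCGC alone, 15.1% of genes called higher and 1.84% of those called neither held a match. Further values of named genes under these alternatives numbered 676. Each move was set against the distance from the middle to an end of the gene's counting interval, on the log2 scale. For members against other cells that interval was the young library's. By this measure 613 moved by less, 63 moved by more and 0 reversed. The 613 include values under the gene floors of 5 CPM, 50 CPM and any UMI. A floor cannot change the ratio of a named gene, so these values were unmoved by construction. No paired analysis was possible because each age has 1 library. Precision is limited by counts in rare genes, and differences between libraries cannot be told apart from differences between ages.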
